A study of Mus musculus with 18 samples.

Results

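The genes that carry iron into, store it in and pass it out of intestinal epithelial cells, or that break down heme, were followed through small intestinal crypts of adult mice after deletion of Prmt1, the gene for a protein arginine methyltransferase. The genes were taken by symbol from the series count table and were all found there, 10 of 55335 genes: Cybrd1, Slc11a2, Tfrc, Fth1, Ftl1, Hmox1, Slc40a1, Heph, Ireb2 and Aco1. The KO mice were Prmt1 fl/fl;Vil-CreERT2, in which the villin promoter drives a tamoxifen-activated Cre in the intestinal epithelium, and the WT mice were Prmt1 fl/fl littermates without Cre. Both genotypes therefore carried the floxed allele, and both were given 2 mg tamoxifen per injection at 8 to 12 weeks of age. Crypts were collected 2, 7 or 14 days after the first injection, after 2 injections for day 2 and after 5 for days 7 and 14, with 3 mice and 3 ribosomal RNA-depleted libraries in each of the 6 groups. The Cre acts in epithelial cells only, so other cells of a crypt preparation keep Prmt1.

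The libraries held 12844642 to 31493484 counts assigned to genes (median 21266804.5), of which the 20 most abundant genes took 18.6% to 32.9%. Prmt1 itself was lower in KO than in WT crypts on every day, at 54.1%, 66.6% and 60.9% of the WT level on days 2, 7 and 14 (edgeR quasi-likelihood test, adjusted p = 0.0264, 0.00675 and 0.00329). The 11 enterocyte and the 8 stem cell markers examined had counts in every library. In such bulk RNA, fewer cells of a type cannot be told apart from less RNA per cell. The study describes mice of both sexes, but the labels give none per sample, so sex was not modelled, and its part in any difference, also for the X-linked Heph, was not tested.

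Dietary iron enters the enterocyte as ferrous iron and either is stored in ferritin or leaves across the basal membrane to the blood. When cells are short of iron, iron regulatory proteins bind hairpins called iron-responsive elements in a few mRNAs: bound at the start of an mRNA they block its translation, and bound in its tail they protect it from decay. A change in ferritin or transferrin receptor protein can therefore arise with little change in mRNA for the former and together with mRNA for the latter, and the libraries measured mRNA only.

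The hairpins are shown because their place tells how this control acts: those at the start of an mRNA bear on its translation, which was not measured, and those in the tail of Tfrc bear on its mRNA level. A search of GENCODE M21 transcripts, on the strand of the transcript, asked for a C bulge, 5 paired bases (G with U allowed), the loop CAGTGN with N any base but G, the 5 partners, and at least 4 of 6 pairs in the lower stem. It found 1 hairpin in the 5′ untranslated region of Fth1, of Ftl1 and of Slc40a1, and 4 in the 3′ untranslated region of Tfrc. The same search found a hairpin in the 5′ region of 6 of 20899 genes with such a region (0.0287%) and in the 3′ region of 11 of 21685 genes (0.0507%). The 6 also held Alas2, the erythroid enzyme that starts heme synthesis, and Ftl1-ps1, an annotated copy of Ftl1. No hairpin of this strict form was found in the other 6 genes, which says only that these letters are not in the annotated transcripts. A hairpin with a further bulge or an unpaired base in the upper stem would be missed. The search therefore does not show that these genes, Slc11a2 among them, lack such control. The 29 bases of each hairpin follow in mm10 (GRCm38), read 5′ to 3′ on the gene's strand, with the 6-base loop in capitals.
Fth1, 5′ region, chr19:9982732-9982760, plus strand: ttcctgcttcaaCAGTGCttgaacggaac
Ftl1, 5′ region, chr7:45459779-45459807, minus strand: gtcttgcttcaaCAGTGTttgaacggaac
Slc40a1, 5′ region, chr1:45925465-45925493, minus strand: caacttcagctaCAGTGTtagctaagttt
Tfrc, 3′ region, chr16:32631219-32631247, plus strand: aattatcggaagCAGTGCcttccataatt
Tfrc, 3′ region, chr16:32631598-32631626, plus strand: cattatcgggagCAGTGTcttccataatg
Tfrc, 3′ region, chr16:32631663-32631691, plus strand: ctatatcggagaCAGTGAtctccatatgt
Tfrc, 3′ region, chr16:32631710-32631738, plus strand: aattatcgggaaCAGTGTttcccataatt

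The question put to the 10 genes was whether their mRNA differed between KO and WT crypts on each day, and whether that difference changed between days. One gene passed the test: Ftl1, the ferritin light chain, was about 2.39-fold higher in KO than in WT crypts on day 7. Its heavy chain partner Fth1 and the heme oxygenase gene Hmox1 also had all 3 KO libraries above all 3 WT libraries on day 7. Neither passed the test, and 33.6% of all genes tested did not overlap that day, so 3 of 10 with Ftl1 is near that share. No gene passed on day 2 or on day 14, when 0.0328% and 7.92% of all genes were called. In WT mice alone, Heph and Ireb2 were lower on day 14 than on day 2, where 1.61% of all genes were called. Both calls were lost with the replicate number as a block.

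**Figure D1:**
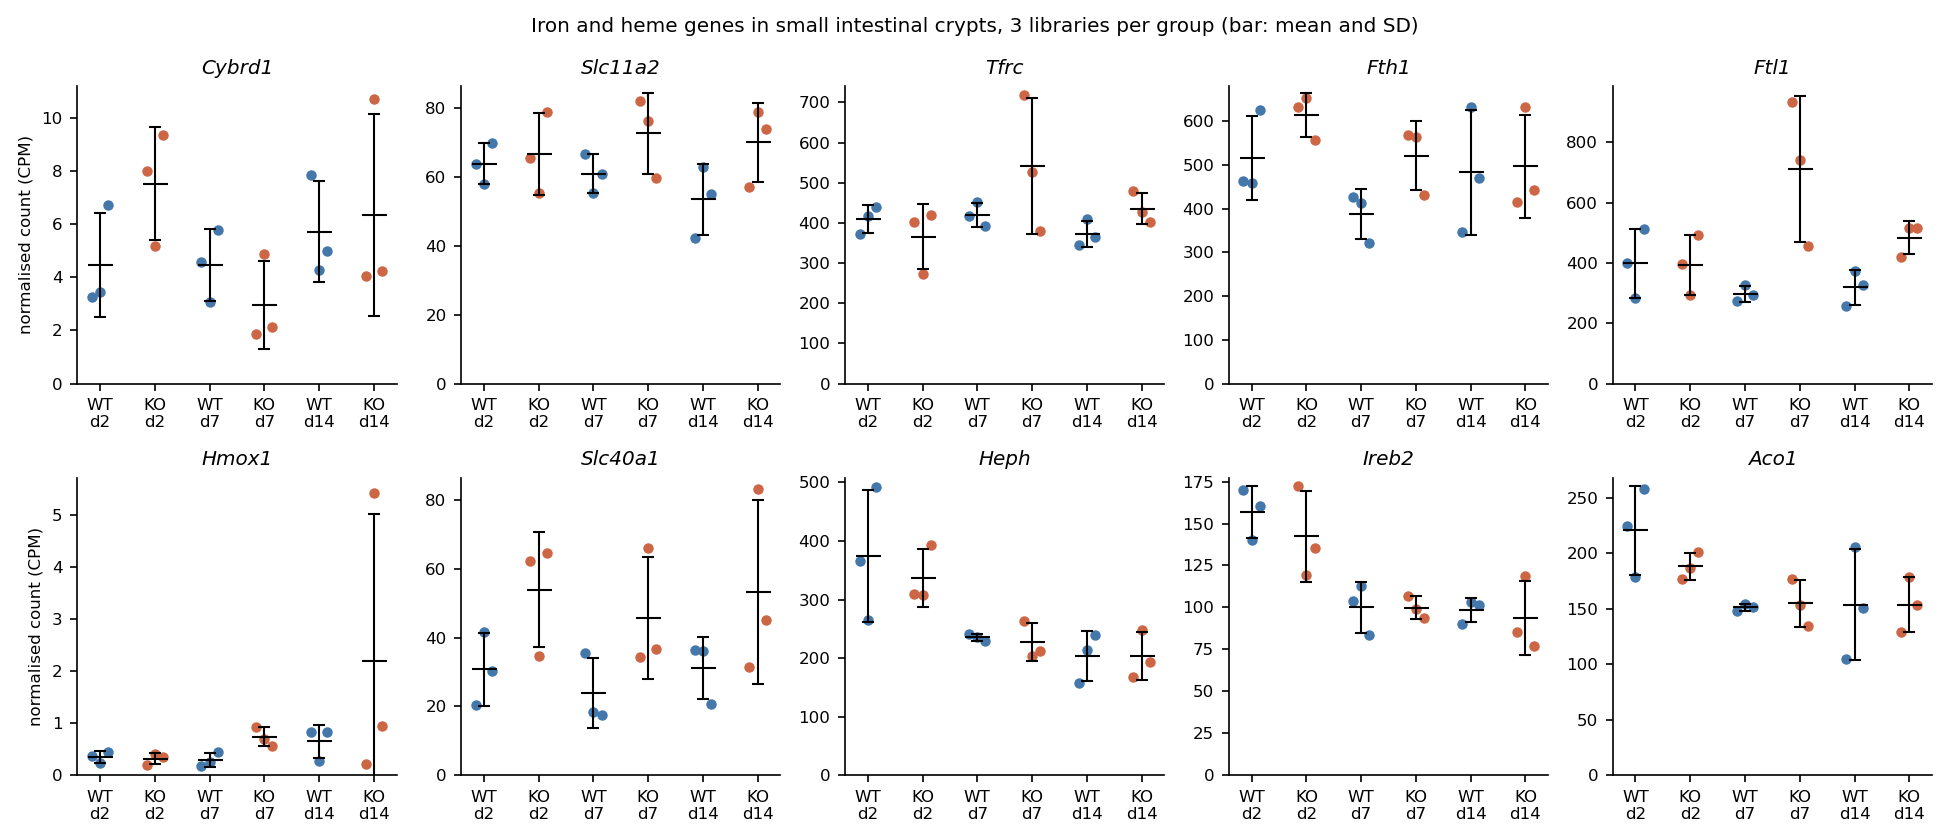
Normalised counts (CPM, scaled to a common library size; linear axes from 0) of the 10 genes in each of 18 libraries, as points, with the mean and SD of 3 libraries per group; the SD bar of Hmox1 on day 14 is cut at 0. The 3 KO libraries of day 7 stand above all WT libraries of that day for Ftl1, Fth1 and Hmox1, and the day 2 groups are the highest for Heph and Ireb2.

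Among the 10 genes the ferritins were the most abundant mRNAs and Hmox1 the least. CPM (counts scaled by TMM to a common library size) divided by the length of all annotated exons of a gene averaged 324 per kb for Ftl1 and 145 per kb for Fth1 over the 18 libraries. That order depends on the length used: Fth1 has long alternative exons, and with the main transcripts of 968 bases for Ftl1 and 929 bases for Fth1 the means are 448 and 542 CPM per kb. On the exon scale Tfrc followed at 68.6, Aco1 at 37.9, Heph at 34.4, Ireb2 at 12.1, Slc11a2 at 10.1 and Slc40a1 at 4.42 CPM per kb. Cybrd1 averaged 0.982 and Hmox1 0.431 CPM per kb. All 10 genes passed the filter on low counts and are among the 21349 genes tested.

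Iron entry is represented by Cybrd1, a membrane reductase that makes ferric iron ferrous, Slc11a2, the ferrous iron transporter DMT1, and Tfrc, the transferrin receptor that takes iron from the blood side. Cybrd1 (chr2:71117923-71142926) lay at 5.19 to 9.36 CPM in the day 2 KO libraries and at 3.24 to 6.72 CPM in their WT counterparts, and at 1.87 to 4.88 CPM in KO against 3.07 to 5.78 CPM in WT on day 7. The KO libraries thus tended above WT on day 2 and below it on day 7, with overlap both times. The log2 fold change was 0.75 (95% interval -0.16 to 1.66) on day 2 and -0.59 (-1.53 to 0.35) on day 7. The change between those days was -1.34 ± 0.62 (SE), with an unadjusted p of 0.0455 and an adjusted p of 0.266 in the edgeR test, so it did not pass. On day 14 the log2 fold change was 0.17 (-0.75 to 1.09), and 1 KO library at 10.7 CPM stood apart from the other two at 4.06 and 4.25 CPM.

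Slc11a2 (chr15:100387898-100425072) varied the least of the 10 genes, from 42.3 to 81.9 CPM over all libraries. On day 14 its KO libraries were at 57.1, 78.9 and 73.8 CPM and its WT libraries at 42.3, 62.9 and 55.0 CPM. One KO library lay among the WT libraries, and the log2 fold change of 0.39 ± 0.17 (SE; 95% interval 0.03 to 0.74) had an adjusted p of 0.183. The KO library was the higher in each of the 3 same-numbered pairs of that day, and with the number as a block on day 14 only, a fit chosen after seeing the data, the change was 0.39 ± 0.14 (adjusted p = 0.103). On days 2 and 7 it was 0.06 and 0.25, with adjusted p-values of 0.999 and 0.339.

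Tfrc (chr16:32608920-32632794) had 1 very high library among the day 7 KO crypts. The KO values were 718.8, 526.9 and 381.1 CPM and the WT values 417.5, 452.1 and 391.2 CPM, so that the lowest of all 6 was a KO library. The log2 fold change was 0.37 ± 0.20 (SE), adjusted p = 0.233. Without that lowest KO library, replicate 3, it was 0.59 and passed the test (adjusted p = 0.0351), the only setting of those tried in which Tfrc was called. On day 2 the log2 fold change was -0.16 (-0.58 to 0.26) and on day 14 it was 0.23 (-0.19 to 0.64).

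Iron storage showed the one called difference. Ftl1 (chr7:45457944-45459884, minus strand) was at 935.1, 742.1 and 456.8 CPM in the 3 KO libraries of day 7 and at 273.5, 325.6 and 293.7 CPM in the 3 WT libraries. Every KO library exceeded every WT library, and the spread among KO libraries was wider than among WT libraries. The log2 fold change was 1.26 ± 0.25 (SE; 95% interval 0.73 to 1.79; edgeR adjusted p = 0.00201). It was the only called gene of the 10 on day 7, where 17.3% of all genes tested were called and 7.11% were called higher, so 1 of 10 is near that background. The Ftl1 call was kept with each library left out in turn, with a log2 fold change of 1.03 to 1.52.

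On day 2 Ftl1 did not pass the test. The KO libraries were at 396.5, 292.5 and 492.8 CPM and the WT libraries at 399.5, 284.0 and 513.0 CPM, overlapping almost fully, with a log2 fold change of -0.02 (95% interval -0.54 to 0.50). The difference between the day 7 and the day 2 effects was 1.28 ± 0.35 (SE) on the log2 scale, with an adjusted p of 0.0468 in the edgeR test, where 4.37% of all genes were called and 1.33% were called higher. That call was kept only without KO day 2 replicate 3, WT day 2 replicate 2 or KO day 7 replicate 3 and lost without any 1 of the other 9 libraries involved, at adjusted p-values of up to 0.146, while the difference itself stayed between 1.04 and 1.52. It was also lost with the replicate block (0.0639) and with only the groups compared (0.0701).

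On day 14 Ftl1 was at 419.2, 515.8 and 517.2 CPM in KO and at 257.1, 371.7 and 326.8 CPM in WT crypts. The groups again did not overlap, but the log2 fold change of 0.60 ± 0.25 (SE; 95% interval 0.08 to 1.13) had an adjusted p of 0.158. No gene of the 10 was called on day 14 by edgeR or by DESeq2, 3 had an unadjusted p under 0.05 (Hmox1, Ftl1 and Slc11a2), and of all genes 7.92% were called and 21.6% had such a p. The day 14 effect of Ftl1 minus the day 7 effect was -0.65 ± 0.35 (SE), which did not pass the test (adjusted p = 0.999).

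**Figure D2:**
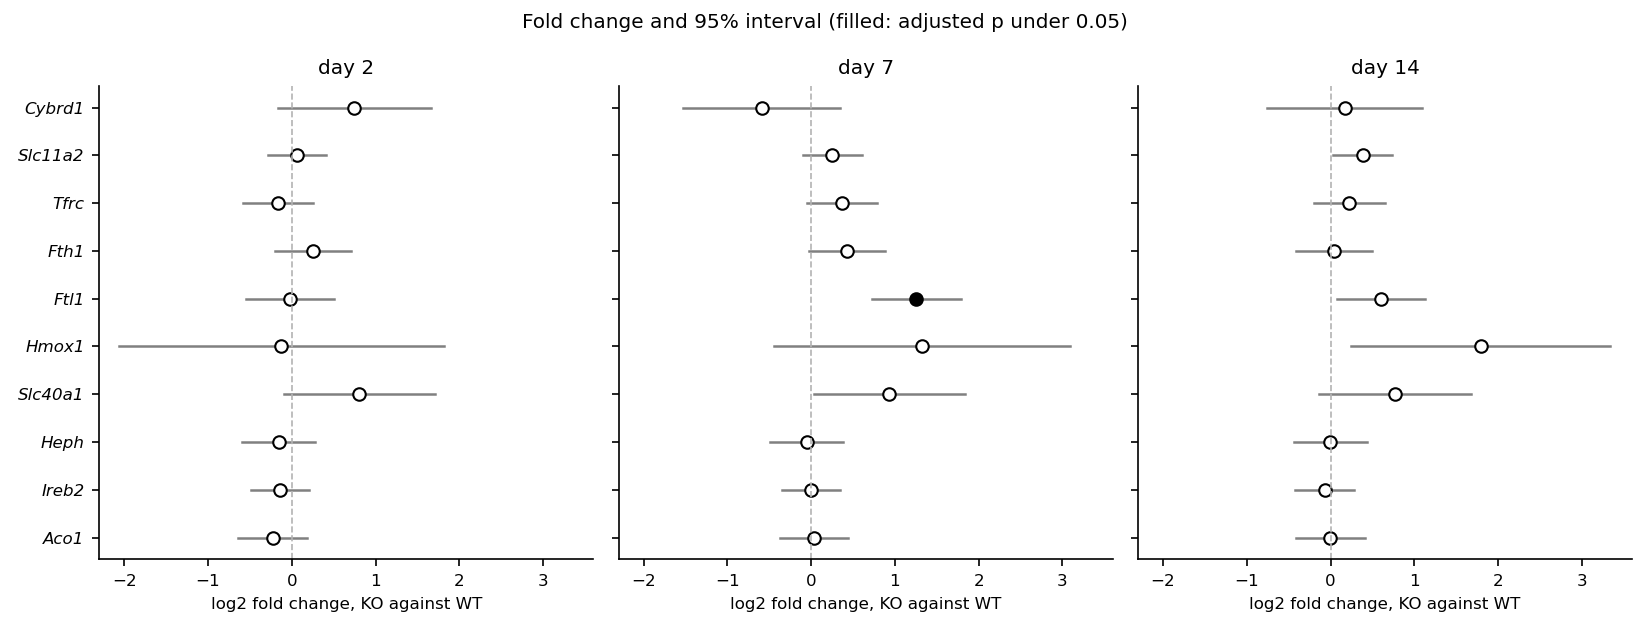
Log2 fold change of KO against WT (points) with its 95% interval (lines) for the 10 genes on days 2, 7 and 14; filled points passed an adjusted p of 0.05. Ftl1 on day 7, at 1.26, is the only filled point, and the interval of Hmox1 is the widest on every day.

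Fth1 (chr19:9980598-9985098), the ferroxidase-active heavy chain that assembles with Ftl1, moved less. On day 7 it was at 569.8, 565.1 and 430.6 CPM in KO and at 427.4, 414.3 and 322.4 CPM in WT crypts. The lowest KO library lay just above the highest WT library, and the log2 fold change was 0.43 ± 0.22 (SE; 95% interval -0.03 to 0.89; adjusted p = 0.200). Fth1, Ftl1 and Hmox1 were 3 of 10 genes whose libraries did not overlap on day 7, where 33.6% of all genes tested did not overlap. On days 2 and 14 the log2 fold change of Fth1 was 0.25 (-0.21 to 0.71) and 0.04 (-0.42 to 0.50). On day 14 just Ftl1 of the 10 genes did not overlap (26.5% of all genes), and on day 2 none did (8.16%).

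The balance of the 2 ferritin chains can be read within each library, where scaling cancels out. This ratio was chosen after the values of both genes were seen and was not tested. The ratio of Ftl1 to Fth1 counts was 1.64, 1.31 and 1.06 in the day 7 KO libraries and 0.64, 0.786 and 0.911 in the day 7 WT libraries. It was above 1 in every day 7 KO library and below 1 in every WT library of the series. On day 14 the KO libraries had 1.01, 0.815 and 1.17 and the WT libraries 0.741, 0.587 and 0.695, again without overlap. On day 2 the KO range of 0.448 to 0.883 enclosed the WT range of 0.62 to 0.863.

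**Figure D3:**
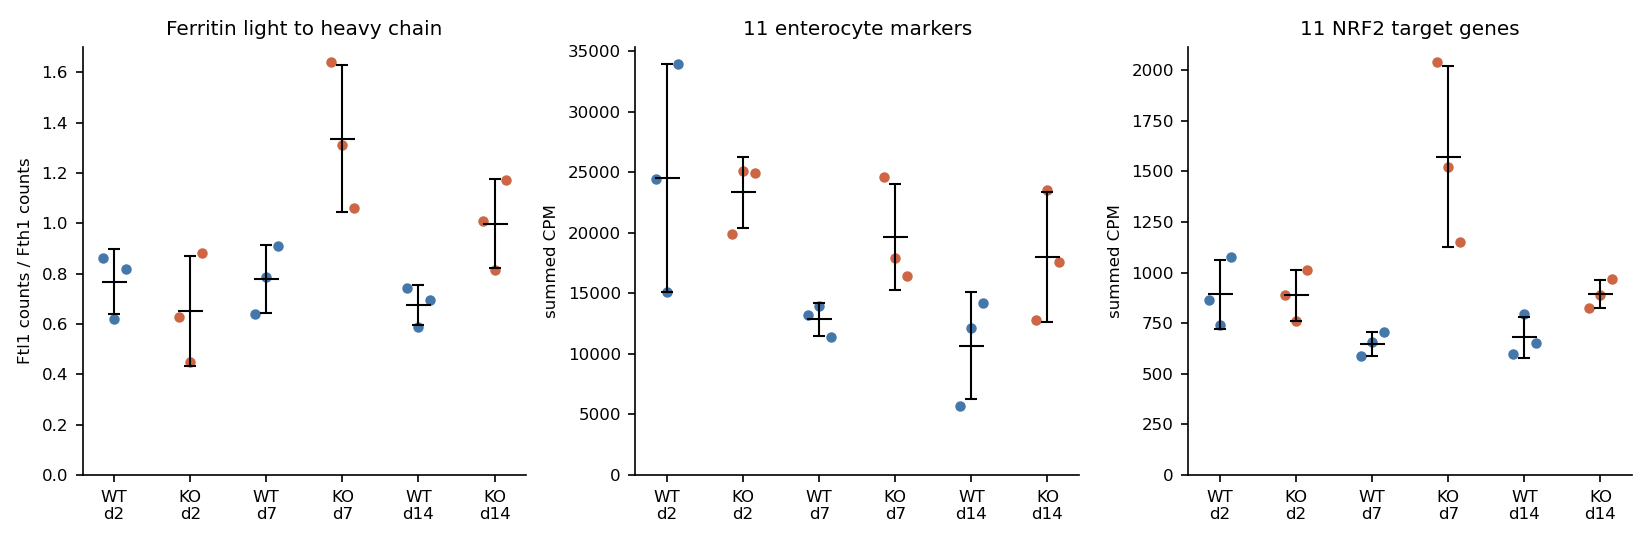
Counts of Ftl1 divided by counts of Fth1 (left, no unit) and the summed CPM of 11 enterocyte markers (middle) and of 11 NRF2 target genes (right) in each library, as points, with the mean and SD of 3 libraries per group. The day 7 KO libraries have ratios of 1.06 to 1.64 against 0.64 to 0.911 in WT, and are above the day 7 WT libraries in both sums.

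Several features of the ferritin loci bear on these counts. Reads that map to more than 1 place were not counted, and reads over more than 1 gene were counted for each. Ftl1 overlaps Gm22133 on its own strand and Gm10252 on the other, which received 65124 and 68847 counts over the series beside the 168144 of Ftl1, so these 3 rows share reads. By the correlation of log2 CPM over 18 libraries the 3 genes most like Ftl1 were Gm22133 (r = 0.993), Gm10252 (r = 0.993) and Atp6v0e2, a subunit of the vacuolar proton pump (r = 0.960). The processed copy Ftl1-ps1 matches the Ftl1 transcript at 906 of 910 aligned bases (99.6%) and had 77, 99 and 52 counts in the day 7 KO libraries against 40, 24 and 23 in WT. Reads common to both genes are missing from both rows. Fth-ps2 had 269 counts in all, Ftl1-ps2, Ftl2-ps and Fth-ps3 at most 26 each, and the Fthl17 genes none.

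Markers of several cell types differed between KO and WT crypts on day 7, when 17.3% of all genes tested were called. A list of 5 or 8 markers with 1 call is near that share. None of 10 proliferation and none of 8 lymphocyte markers was called. The summed CPM of 11 enterocyte markers was 16433 to 24627 in the day 7 KO libraries and 11366 to 13971 in WT, without overlap, and 2 of the 11 passed as higher and 1 as lower. The sum of 8 stem cell markers was 356.5 to 889.4 in KO and 1379 to 1804 in WT, with 6 of 8 lower. All 7 Paneth cell markers were lower, with sums of 1410 to 3971 CPM in KO against 8993 to 14970.4 CPM in WT, and all 9 enteroendocrine markers were higher, with 659.9 to 825.7 CPM against 291.4 to 316.7 CPM. Of the tested markers, 2 of 7 goblet and 1 of 5 tuft cell markers were lower, and 2 of 8 stromal and 1 of 8 macrophage markers were higher. Of gut-region and red cell markers, 1 of 5 duodenal and 1 of 5 erythroid ones were lower and 1 of 5 ileal ones was higher. The duodenal sum was 227.0 to 260.2 CPM in KO and 278.7 to 348.9 CPM in WT, without overlap. Among the day 7 KO libraries, replicate 1 had the highest Ftl1 and the highest enterocyte sum, and replicate 3 the lowest of both. The part of these cell types and of gut region in the Ftl1 difference was not tested.

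Ftl1, Fth1, Slc40a1 and Hmox1 are also known targets of the redox-sensitive factor NRF2, encoded by Nfe2l2. Of 11 other NRF2 targets, 10 were higher in KO crypts on day 7, with a median log2 fold change of 1.21, and 2 on day 14 (median 0.36). Their summed CPM was 2041, 1522 and 1152 in the day 7 KO libraries and 587 to 705 in WT. The KO libraries had that order for Ftl1 too, but also for the enterocyte, hypoxia target, heme synthesis and mitochondrial iron sums. Of the 4 targets among the 10 genes, Ftl1 alone passed on day 7. The part of NRF2 was not tested.

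Heme breakdown is represented by Hmox1, the inducible heme oxygenase that opens the heme ring and frees its iron. Hmox1 (chr8:75093621-75100589) had few reads, 3 to 86 counts per library. On day 7 it was at 0.93, 0.70 and 0.57 CPM in KO and 0.18, 0.26 and 0.44 CPM in WT crypts. The groups did not overlap, but these are 13 to 21 counts against 4 to 10, and the log2 fold change of 1.33 ± 0.84 (SE; 95% interval -0.44 to 3.09) had an adjusted p of 0.315. On day 14 a single KO library, replicate 2, reached 5.43 CPM (86 counts), while the other two were at 0.21 and 0.94 CPM and WT lay at 0.28 to 0.83 CPM. The log2 fold change was 1.79 ± 0.73 (SE; adjusted p = 0.155). It passed only without KO replicate 1 (2.36, adjusted p = 0.0192), and without replicate 2 it was -0.16. Macrophages, which degrade heme of red cells, may be present in crypt preparations. On day 7 their 10 markers summed to 16.8 to 22.3 CPM in KO and 10.4 to 14.6 CPM in WT libraries, without overlap, with 8 of 8 tested markers above 0 in log2 fold change and 1, Mrc1, called higher. Their part in the day 7 values of Hmox1, Ftl1 and Fth1 was not tested. On day 14 the macrophage markers summed to 17.9 CPM in the library with the high Hmox1, with 2 of 10 at 0. The WT libraries of the day had 14.8 to 29.0 CPM, and the part of macrophages was not tested there either.

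Of the enzymes and carriers beside Hmox1, the constitutive oxygenase gene Hmox2 was at 30.0 ± 3.33 CPM in KO, and WT crypts had 27.6 ± 0.775 CPM on day 7 (SD, n = 3; adjusted p = 0.678). Flvcr2, which encodes a carrier of the FLVCR family, had the greatest log2 fold change of the 64 further iron and heme genes tested on day 7. It had 10.9 to 22.3 CPM in KO and 3.19 to 4.64 CPM in WT libraries, or 1.92 ± 0.42 (SE) on the log2 scale (adjusted p = 0.00463). Blvrb, a biliverdin and flavin reductase, was lower on day 14 with a change of -0.52 ± 0.16 on the log2 scale (adjusted p = 0.0486). The call was lost in 5 of 6 fits that left out 1 library (adjusted p up to 0.209; kept without WT replicate 1) and with the replicate number as a block (0.0582). On day 7 Blvrb was at 0.08 (adjusted p = 0.796).

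Iron export uses Slc40a1, ferroportin, the only known cellular iron exporter, and Heph, hephaestin, the copper oxidase that makes exported ferrous iron ferric. Slc40a1 (chr1:45908068-45926523) was at 62.4, 34.6 and 64.8 CPM in KO and at 20.5, 41.8 and 30.2 CPM in WT crypts on day 2. On day 7 it was at 34.3, 66.1 and 36.7 CPM in KO against 35.6, 18.5 and 17.5 CPM in WT. On day 14 it was at 31.4, 83.1 and 45.1 CPM in KO against 36.5, 36.2 and 20.7 CPM in WT. The KO mean was above the WT mean on all 3 days, and the libraries overlapped on all of them. The log2 fold changes of 0.81, 0.93 and 0.77 had standard errors of 0.42, 0.42 and 0.42 and adjusted p-values of 0.999, 0.154 and 0.318, so none passed. The day 7 interval of 0.03 to 1.84 leaves the size of any difference open to a wide range.

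For Heph (chrX:96455359-96574485) no difference between genotypes passed the test on any day. The log2 fold change was -0.15 (95% interval -0.59 to 0.28) on day 2, -0.05 (-0.49 to 0.39) on day 7 and 0.00 (-0.44 to 0.44) on day 14. It did differ between days in WT mice, as described next. Heph lies in part over Hsf3 on the other strand and over Gm14935 and Rpl17-ps8 on its own, which had 4905, 1681 and 285 counts beside the 102165 of Heph.

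The regulators are Aco1, whose product is a cytosolic aconitase with an iron-sulfur cluster and becomes iron regulatory protein 1 when the cluster is lost, and Ireb2, iron regulatory protein 2, which is degraded when iron is plentiful. Neither gene passed the test between KO and WT on any day. For Ireb2 (chr9:54863789-54912530) the log2 fold change was -0.14 (-0.49 to 0.21), -0.00 (-0.35 to 0.34) and -0.07 (-0.42 to 0.28) on days 2, 7 and 14. For Aco1 (chr4:40143081-40198338) it was -0.23 (-0.64 to 0.18), 0.04 (-0.37 to 0.44) and -0.00 (-0.41 to 0.41). The widest bound among these intervals is -0.64, for Aco1 on day 2, and the proteins were not measured.

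Across the 10 genes the median log2 fold change of KO against WT was -0.07 on day 2, 0.31 on day 7 and 0.20 on day 14, beside medians of -0.0048, 0.016 and 0.0022 over all genes tested. Of the 10, 4 were above 0 on day 2 and 7 on each later day, where 49.1%, 51.6% and 50.2% of all genes were. On day 2 no gene of the 10 was called by edgeR or by DESeq2 and none had an unadjusted p under 0.05, where 0.0328% of all genes were called and 3.33% had such a p. Between days 7 and 14 the KO effect changed by the test for none of the 10 with either tool, none had an unadjusted p under 0.05 (4.46% of all genes), and the edgeR test called 0% of all genes.

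Time after tamoxifen was examined in the WT mice, in which no Cre was present. Day 2 differs from both later days also in the number of injections before collection, and for comparisons with day 2 time and injections cannot be told apart. Heph was at 366.6, 265.3 and 491.8 CPM on day 2, at 240.5, 235.5 and 229.4 CPM on day 7 and at 157.0, 213.2 and 239.8 CPM on day 14. All day 2 libraries lay above all later ones, as 23.8% of all genes did not overlap between days 14 and 2. The fall from day 2 to day 14 was -0.88 ± 0.21 (SE) on the log2 scale (adjusted p = 0.0433, or 0.0573 with the replicate block), and that to day 7 was -0.67 ± 0.21 (adjusted p = 0.0894).

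Ireb2 had the same order of days in WT mice. It was at 169.8, 139.9 and 160.7 CPM on day 2, at 103.8, 112.8 and 83.4 CPM on day 7 and at 90.1, 103.2 and 101.6 CPM on day 14. The day 2 libraries were again above all later ones, by a log2 fold change of -0.67 ± 0.17 (SE) to day 14 (adjusted p = 0.0476, or 0.0611 with the replicate block) and -0.65 ± 0.17 to day 7 (adjusted p = 0.0593). Aco1 was at 178.5 to 257.9 CPM on day 2, 147.9 to 154.3 CPM on day 7 and 104.9 to 205.2 CPM on day 14, and its differences of -0.54 and -0.52 did not pass (adjusted p = 0.121 and 0.148), although without WT day 14 replicate 2 the latter did (-0.79, adjusted p = 0.0447). Heph and Ireb2 were the 2 of 10 genes called between days 14 and 2, where 1.61% of all genes were called and 0.871% were called lower. DESeq2 called the same 2 genes and 6.48% of all genes.

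Between days 7 and 2 of the WT mice edgeR called none of the 10 genes (0.553% of all genes), 3 had an unadjusted p under 0.05 (22.4% of all genes), and DESeq2, which called 7.08% of all genes, called 2, Heph and Ireb2. Fth1, Heph, Ireb2 and Aco1 had all day 7 libraries below all day 2 libraries, as 28.4% of all genes did not overlap. Between days 14 and 7 none was called by either tool (0.0796% of all genes) and none had an unadjusted p under 0.05 (5.18% of all genes). Both calls between days 14 and 2 were lost when WT day 2 replicate 1 or 3 or any of the WT day 14 libraries was left out, with adjusted p-values of up to 0.179 for Heph and 0.189 for Ireb2.

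The KO libraries had the same order for these genes. With groups ranked by mean, Heph and Ireb2 ran from WT day 2 and KO day 2 through WT day 7, KO day 7 and WT day 14 to KO day 14. The sole neighbours in that order whose libraries did not overlap were KO day 2 and WT day 7, for Heph 306.9 to 393.2 CPM against 229.4 to 240.5 CPM and for Ireb2 119.0 to 172.4 CPM against 83.4 to 112.8 CPM. For the other 8 genes every pair of neighbours overlapped. The order was set by the same values, and no share over all genes was computed, so whether such gaps are unusual was not tested. Ftl1 ranked from KO day 7 and KO day 14 through WT day 2, KO day 2 and WT day 14 to WT day 7.

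Enterocyte content varied with some of the 10 genes among libraries of the same group. Heph is an enterocyte gene, and the deviation of its log2 CPM from the group mean followed that of the enterocyte sum with Pearson's r of 0.924 and Spearman's rho of 0.878 over 18 libraries. For Aco1 they were 0.87 and 0.876, for Fth1 0.752 and 0.763, for Slc11a2 0.689 and 0.653 and for Ftl1 0.672 and 0.705. The relation was weaker for Ireb2 (r = 0.449, rho = 0.494), Hmox1 (r = 0.416) and Tfrc (r = 0.224), and Slc40a1 and Cybrd1 showed none (r = -0.102 and 0.054). These are descriptions on points that share a library and its scaling, chosen after the values were seen. The sum itself was 15107 to 33952 CPM in WT day 2, 11366 to 13971 CPM in WT day 7 and 5738 to 14197 CPM in WT day 14 libraries, so all its later WT values lay below those of day 2, as for Heph and Ireb2, of which only Heph followed the sum closely within groups. KO enterocyte sums overlapped between days, at 19919 to 25135, 16433 to 24627 and 12821 to 23562 CPM on days 2, 7 and 14. KO values of Heph on those days were 306.9 to 393.2, 204.0 to 264.1 and 167.7 to 248.4 CPM, highest on day 2 without overlap. Among WT libraries a sum of 5 genes of duodenal identity was 435.6 to 679.0 CPM on day 2. It was 278.7 to 348.9 and 211.9 to 372.2 CPM on days 7 and 14. Between WT days 2 and 14 the lymphocyte sum went from 163.1 to 219.7 CPM down to 71.9 to 117.0 CPM. The WT tuft cell sum rose, from 56.5 to 67.9 CPM on day 2 up to 70.8 to 84.6 CPM on day 14. The part of cell content or gut region in the day differences was not tested.

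**Figure D4:**
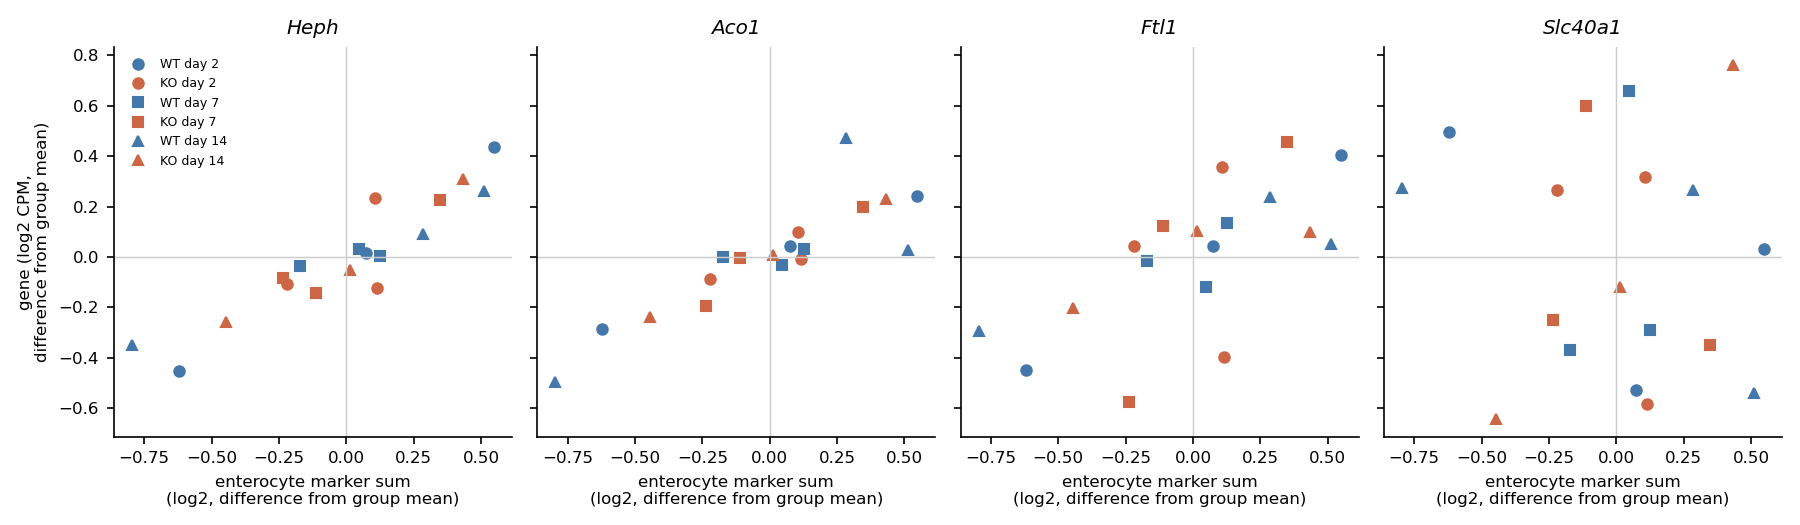
Each point is 1 of 18 libraries; axes give the log2 difference from the mean of its group for the summed enterocyte markers (horizontal) and for the CPM of Heph, Aco1, Ftl1 and Slc40a1 (vertical). Heph and Aco1 rise with the sum (r = 0.924 and 0.87), Ftl1 less closely (r = 0.672), and Slc40a1 does not (r = -0.102).

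Single libraries raised or lowered most of the 10 genes at once. KO day 14 replicate 2 had the highest value of its group for 8 of the 10 genes, KO day 7 replicate 1 for 8 and WT day 2 replicate 3 for 8, and each of these had the highest enterocyte sum of its group. WT day 14 replicate 1 had the lowest value for 7 genes and the lowest enterocyte sum of all libraries, 5738 CPM. The reverse was also seen: KO day 2 replicate 2 had the highest enterocyte sum of its group, 25135 CPM, and the lowest value for 7 genes.

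A further 72 iron and heme genes were examined as a list by role, and 64 passed the filter. Hamp and Hamp2, which encode the liver hormone hepcidin, were among the 8 that did not, with Ftmt, Hephl1, Hjv, Hpx, Tfr2 and Tmprss6. On day 7, 5 of the 64 were higher and 7 lower in KO crypts, on day 14 none was higher and 6 were lower, and on day 2 none was called. Single libraries moved this: 2 were higher and 4 lower on day 7 without KO replicate 1, 3 and 4 without WT replicate 2, and 7 and 4 without KO replicate 3. Without WT replicate 1 of day 7, 2 were higher and 6 lower. The share of all genes called in these 4 fits was 9.43%, 12.1%, 19% and 11.5%, beside 17.3% with all libraries. On day 14, 2 were lower without KO replicate 2 and 3 without KO replicate 1, where 5.24% and 4.95% of all genes were called. The share called was 12 of 64 on day 7 and 6 of 64 on day 14, beside 17.3% and 7.92% of all genes. Of all genes 7.11% were higher and 10.2% lower on day 7, and 3.23% higher and 4.69% lower on day 14. The median log2 fold change of the list was 0.06 and -0.01.

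The KO effect changed from day 2 to day 7 by the test for 3 of the 64 further genes, where 4.37% of all genes were called. The changes were 2.33 ± 0.58 (SE) on the log2 scale for Flvcr2 (adjusted p = 0.0332), 0.85 ± 0.24 for Hif1a (0.0490) and -0.89 ± 0.25 for Uros (0.0460). These calls rested on single libraries. The Flvcr2 call was kept in 4 of 12 fits that left out 1 library, those without KO day 2 replicate 3, WT day 2 replicate 2 or KO day 7 replicate 2 or 3. The Hif1a call was kept in 2, without WT day 2 replicate 2 or KO day 7 replicate 3, and the Uros call in 1, without WT day 2 replicate 2. The highest adjusted p-values were 0.0896, 0.145 and 0.118. With the replicate block Flvcr2 passed (0.0272), and Hif1a (0.0703) and Uros (0.0632) did not.

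Heme synthesis had 2 of 11 genes lower on both days. Uros, which closes the porphyrin ring, was at 6.90 ± 0.70 CPM in KO, and WT crypts had 13.3 ± 0.49 CPM on day 7 and at 6.90 ± 2.24 against 12.3 ± 0.54 CPM on day 14 (SD, n = 3; adjusted p = 0.000958 and 0.00579). Fech, ferrochelatase, which inserts iron into the ring as the last step of the pathway, was at 27.3 ± 0.22 CPM in KO, and WT crypts had 37.8 ± 2.60 CPM on day 7 and at 25.3 ± 1.14 against 36.0 ± 0.95 CPM on day 14 (adjusted p = 0.00206 and 0.00220). For both genes no KO library reached the lowest WT library of its day. The first enzymes Alas1 and Alas2 and 7 other genes of the list did not pass.

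Iron entry beyond the transferrin receptor had 3 of 11 tested genes lower on day 7 and 2 on day 14, and none higher. Slc39a8, the metal carrier ZIP8, was at 14.7 ± 0.78 CPM in KO, and WT crypts had 24.3 ± 3.67 CPM on day 7 (log2 fold change -0.72 ± 0.16 SE; adjusted p = 0.00425) and changed by -0.73 ± 0.16 on day 14 (adjusted p = 0.00806). Steap2, of a family of metalloreductases, changed by -0.45 ± 0.14 and -0.53 ± 0.14 (adjusted p = 0.0312 and 0.0224). Leaving out 1 library ended the Steap2 call in 4 of 6 fits on each day, at adjusted p up to 0.155 and 0.132; it was kept without KO replicate 2 or WT replicate 1 on day 7 and without WT replicate 2 or 3 on day 14. For Slc39a8 it did so on day 14 without KO replicate 2 (0.0571). The other, Steap3, was lower on day 7 only (-0.53 ± 0.16, adjusted p = 0.0331), and is named here after its value was seen.

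Regulators of iron and oxygen sensing went both ways on day 7, with 4 of 10 higher and 1 lower. Nfe2l2 rose by 0.69 ± 0.17 (SE) on the log2 scale (adjusted p = 0.00704), Bach1, a heme-binding repressor of Hmox1, by 0.54 ± 0.16 (adjusted p = 0.0266), Hif1a by 0.64 ± 0.17 (adjusted p = 0.0129) and Egln3, a prolyl hydroxylase that acts on hypoxia factors, by 1.55 ± 0.42 (adjusted p = 0.0204). Vhl, whose product marks hypoxia factors for degradation, was lower on day 7 (-0.57 ± 0.14, adjusted p = 0.00783) and on day 14 (-0.52 ± 0.14, adjusted p = 0.0240). Without single libraries the day 7 calls were lost in 4 of 6 fits for Bach1 (adjusted p up to 0.0859; kept without KO replicate 1 or 3) and Egln3 (0.109; kept without KO replicate 2 or 3), in 2 for Hif1a (0.0922, without KO or WT replicate 1) and in 1 for Nfe2l2 (0.0528, without KO replicate 1). The Vhl call held on day 7 but was lost in 4 of 6 such fits on day 14 (up to 0.113; kept without WT replicate 1 or 3). None of the 4 higher genes passed on day 14. Of 10 hypoxia target genes, which include Egln3, 3 were higher and 1 was lower on day 7, and 2 were higher and 1 lower on day 14.

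Of 17 genes of mitochondrial iron and iron-sulfur assembly, 1 passed on day 7. Hscb, a co-chaperone of cluster transfer, was at 2.80 ± 0.38 CPM in KO, and WT crypts had 4.86 ± 1.38 CPM (SD, n = 3; log2 fold change -0.78 ± 0.22 SE; adjusted p = 0.0183). The call was lost without KO replicate 1 or 3 or WT replicate 2, at adjusted p up to 0.111. On day 14 it was at -0.56 ± 0.22 (adjusted p = 0.136). The 4 tested genes of ferritin handling, among them Ncoa4, which delivers ferritin to the lysosome, and the 4 of the export and hepcidin axis had no call on any day.

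**Figure D5:**
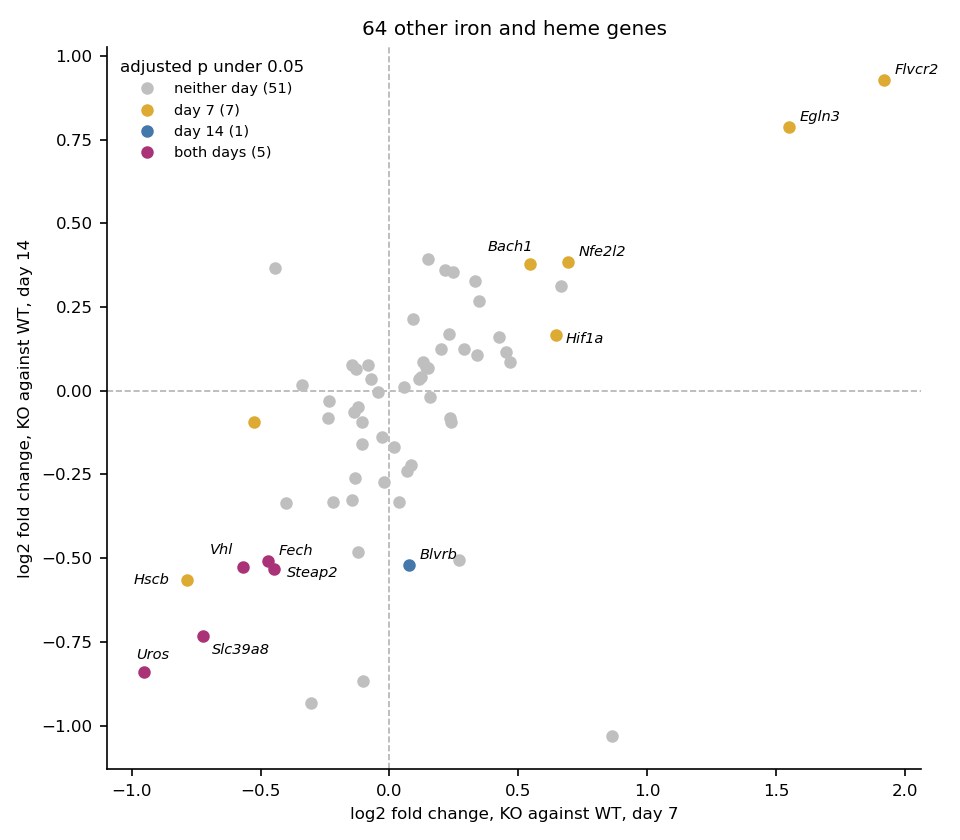
Log2 fold change of KO against WT on day 7 (horizontal) and day 14 (vertical) for the 64 further iron and heme genes tested, coloured by the day on which the adjusted p was under 0.05 (legend gives the number of genes). The 5 genes called on both days with all libraries, Uros, Fech, Slc39a8, Steap2 and Vhl, lie in the lower left (the last 3 lost a call when a library was left out), and Flvcr2 and Egln3 lie farthest to the right.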

How the data were processed

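The authors sequenced ribosomal RNA-depleted total RNA of small intestinal crypts, 18 libraries, and deposited raw counts per gene made with featureCounts 1.6.4 after STAR 2.7.3 alignment to mm10. Per the file headers, counts came from GENCODE M23 (the study's methods name M26), without strand, from uniquely mapped read pairs, with pairs over several genes counted for each. Gene coordinates are those of the table; hairpins and transcript lengths come from GENCODE M21 (GRCm38), in which all 10 genes have the same coordinates.

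Counts were tested in edgeR 4.0.16 (R 4.3.3): filterByExpr by group, TMM, and a robust quasi-likelihood fit with 1 mean per group over all 18 libraries, leaving out 20 genes that the study lists as differing between sexes, with Benjamini-Hochberg adjustment over 21349 genes and a threshold of 0.05. Intervals are 95%. CPM are normalised by TMM. Ferritin copies were aligned with blastn 2.17.0+. Members and lists were chosen with earlier results of these data known. Named were all 10 genes, Prmt1, up to 12 further iron and heme genes called on day 7 or 14 by smallest p, and the 3 genes most like a member called on day 7. Each library is 1 mouse, and no 2 libraries had identical counts.

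Replicate numbers are shared by the groups. Same-numbered KO and WT libraries had correlations above 0 on day 14 (r = 0.227, 0.180 and 0.159) and day 2 (0.0478, 0.158 and 0.381). On day 7 this did not hold in every pair (-0.159, 0.206 and 0.0787). Alternatives were DESeq2 1.42.0, other scalings and filters, a replicate block (also on day 14 only), only the groups compared, and leaving out each library. Confidence intervals cover the spread between these libraries only.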

Additional observations from a re-analysis of the deposited data

Results flagged for a closer look

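The KO effect on Ftl1 differed between days 7 and 2 by a test of that difference, an interaction contrast in edgeR. The difference was 1.28 ± 0.35 (SE) on the log2 scale (adjusted p = 0.0468). All 3 day 7 KO libraries lay above all day 7 WT libraries, and the groups overlapped on day 2. The call was lost with the replicate block (adjusted p = 0.0639), with only the groups compared (0.0701) and in 9 of 12 fits that left out 1 library. Adjusted p ranged from 0.00151 to 0.146 over the alternatives.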

How the results depend on the processing

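The day 7 call of Ftl1 held under all alternatives tried, and no member was called on day 2 or for the change from day 7 to 14 under any. The change of the Ftl1 effect from day 2 to 7 went from 1 called gene to 0 with the replicate block (adjusted p = 0.0639 for Ftl1), with only the groups compared, and in 9 of 12 fits that left out 1 library (range 0 to 1). The cause was not tested. With the replicate block the 2 calls between WT days 14 and 2 also went to 0 (adjusted p = 0.0573 for Heph and 0.0611 for Ireb2), as with only the groups compared, and left-out libraries gave 0 to 2, where the 1 gene called without WT day 14 replicate 2 was Aco1. The block changed no other call among the 10 genes. On day 14 every library correlated best with its own number. On day 2 all same-numbered pairs correlated above 0 (0.0478, 0.158 and 0.381), though KO replicate 1 correlated more with WT replicate 2 (0.111). On day 7 the pair of replicate 1 did not (-0.159). The study used littermate controls matched for age and sex, and the labels do not say which animals a number joins. Between WT days 7 and 2, 2 genes were called by DESeq2 (Heph and Ireb2), 3 with no filter on low counts (with Aco1), 1 with a mean count of at least 50 (Ireb2), 1 with only the groups compared (Ireb2) and 0 to 2 with a library left out. The share of all genes called in these fits was 7.08%, 2.59%, 3.47%, 2.87% and 0% to 2.43%. Between WT days 14 and 2 it was 0.81% with the block, 0.14% with only the groups compared and 0.101% to 3.23% with a library left out. On day 7, 1 to 2 members were called with a library left out (Tfrc added without KO replicate 3), and on day 14, 0 to 1 (Hmox1, without KO replicate 1), where 9.43% to 19% and 4.73% to 6.08% of all genes were called. For the further list the left-out range in the same fits was 6 to 11 genes on day 7, lowest without KO replicate 1 (6) and WT replicate 2 (7), and 2 to 5 on day 14, lowest without KO replicate 2 (2) and KO replicate 1 (3).

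Signs turned only where the log2 fold change was near 0 or rested on 1 library, never in a called comparison. On day 7 Ireb2 became 0.0013 with DESeq2, 0.0012 with its size factors and 0.0014 with the block. On day 14 Heph became 0.0095, 0.0094 and 0.012 under these and 0.011 where the mean count had to reach 50, and Aco1 became 0.0081, 0.0080, 0.0078 and 0.018. With the block on day 14 only, an alternative chosen after seeing the data that called 0 of the 10 genes, Heph became 0.0025 and Aco1 0.039. With a library left out, day 2 values ran from -0.34 to 0.096 for Hmox1, -0.21 to 0.20 for Ftl1, -0.079 to 0.18 for Slc11a2, -0.28 to 0.012 for Tfrc and -0.35 to 0.085 for Heph. Day 7 values ran from -0.15 to 0.021 for Heph, -0.12 to 0.092 for Ireb2 and -0.049 to 0.15 for Aco1. Day 14 values ran from -0.16 to 2.36 for Hmox1, -0.16 to 0.28 for Fth1, -0.42 to 0.46 for Cybrd1, -0.16 to 0.14 for Heph, -0.26 to 0.061 for Ireb2 and -0.21 to 0.26 for Aco1. With 3 to 86 counts per library, depth limits Hmox1, whose day 7 interval spans -0.44 to 3.09.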
